A study of Homo sapiens with 4 samples.

Results

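The EGR, KLF, IER and MYC genes were examined in HN12 cells, an HNSCC (head and neck squamous cell carcinoma) cell line, with and without ATAD3A. The 10 genes (EGR1, EGR2, EGR3, IER2, IER3, KLF2, KLF4, KLF6, KLF10 and MYC) were chosen by their symbols in the deposited table, out of 26726 genes listed there. After a filter on low counts, 8 of them could be tested among 15104 tested genes, and EGR2 and EGR3 could not. Parental HN12 cells (WT) were compared with HN12 cells in which ATAD3A, a mitochondrial inner membrane ATPase, had been disrupted by CRISPR/Cas9 (KO), with 2 libraries in each group and no other treatment. The study's methods state that the duplicates were independent cultures. The KO cells came from clones grown from single cells, and which clone gave each KO library is not given in the sources used here, so a difference between KO and WT cannot be told apart from one between a clone and its parental line. The labels and the study's methods name different growth media, and neither gives the time between the last change of medium and the extraction of RNA.

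Most of these genes are immediate early genes, which means that growth factors, serum or stress switch them on within minutes without new protein synthesis. ERK1/2 kinases phosphorylate the ternary complex factors ELK1, ELK3 and ELK4, which sit with serum response factor (SRF) on CArG boxes in the promoters of EGR1 and related genes. The EGR proteins are zinc finger activators held back by their co-repressors NAB1 and NAB2. The KLF proteins bind GC-rich SP/KLF boxes through a similar zinc finger domain, MYC pairs with MAX on E-boxes to drive ribosome and nucleotide synthesis, and the small IER proteins are early response products without a DNA-binding domain of this kind. In squamous epithelium, KLF4 is known for its part in terminal differentiation and MYC for keeping cells growing. The study was about ERK1/2 signalling at mitochondria, and the comparison asks how the transcripts of these early targets stood in cells without ATAD3A.

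The libraries held between 13569971 and 18943547 counts on genes, so that 3 counts, the number that a count of 0 allows, corresponded to between 0.162 and 0.215 CPM (counts scaled to library totals with TMM factors). Such limits and all intervals given for counts cover counting error only. The targeted gene ATAD3A had a mean of 34.0 ± 5.71 CPM in KO against 111 ± 7.49 CPM in WT (SD, n = 2 each), a log2 fold change of -1.70. The squamous epithelium markers KRT5, KRT14, KRT17, KRT6A, TP63, CDH1, EPCAM and SFN were all present, and their summed level was 4734 and 4703 CPM in the KO libraries against 1983 and 1988 CPM in the WT libraries. KRT5, KRT14, KRT17, KRT6A and SFN were higher in KO, whereas TP63, CDH1 and EPCAM were lower. Markers of other cell types had low summed levels, between 12 and 16.6 CPM for fibroblast markers (mostly COL1A1, at 11.3 to 14.6 CPM, while COL1A2 and COL3A1 had at most 3 counts), between 4.98 and 8.54 CPM for immune markers and between 1.52 and 2.38 CPM for endothelial markers. Of these, CSF1R was called lower in KO (log2 fold change -0.81, adjusted p = 0.0336, edgeR). The part of the keratin shift in the results below was not tested. In a bulk sample, more cells with a transcript and more transcript per cell cannot be told apart.

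The sequences just upstream of the start sites show what sets some of these promoters apart by their letters. From the RefSeq promoter table (GRCh38.p14), 8 windows for 6 of the 10 genes were searched. Each ran from 250 bases before a start site to 50 after it. The table held no window for IER3, and the promoters of EGR3, KLF10 and MYC were left out of the search. Here the 250 bases before the start are printed for EGR1 and for the EGR2 start with a CArG box, since CArG boxes are rare, and for KLF6, the gene that rose furthest. They are read 5′ to 3′ on the gene's strand. EGR1 is on the plus strand at chr5:138465229-138465478, EGR2 on the minus strand at chr10:62816367-62816616 and KLF6 on the minus strand at chr10:3785210-3785459. Capitals mark CArG boxes (CC, then 6 letters that are each A or T, then GG), the CRE core TGACG or its reverse complement CGTCA, the EGR site GCGGGGGCG and the E-box CACGTG.
EGR1: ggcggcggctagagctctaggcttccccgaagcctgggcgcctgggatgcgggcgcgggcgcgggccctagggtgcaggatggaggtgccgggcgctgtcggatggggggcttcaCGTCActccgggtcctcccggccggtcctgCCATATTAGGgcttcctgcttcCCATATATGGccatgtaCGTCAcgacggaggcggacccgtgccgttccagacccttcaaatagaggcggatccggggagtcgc
EGR2: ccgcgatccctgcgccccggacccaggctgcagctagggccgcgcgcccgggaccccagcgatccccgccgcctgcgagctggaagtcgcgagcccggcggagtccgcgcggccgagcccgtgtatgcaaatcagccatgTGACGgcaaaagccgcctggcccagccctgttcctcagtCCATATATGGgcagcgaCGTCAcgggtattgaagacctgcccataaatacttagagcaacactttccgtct
KLF6: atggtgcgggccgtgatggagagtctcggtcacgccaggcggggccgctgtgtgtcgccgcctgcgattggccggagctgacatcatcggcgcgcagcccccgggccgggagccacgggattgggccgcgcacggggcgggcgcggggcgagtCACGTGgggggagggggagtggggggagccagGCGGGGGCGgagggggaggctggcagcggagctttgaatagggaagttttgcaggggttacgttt

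A CArG box, searched on both strands, occurred in 1.29% of all 35116 promoter windows in the table. The EGR1 window had 2 of them, at -105 and -83 from the start site, each close to a CRE core (-135 and -66). One EGR2 window had 1 CArG box at -71 between CRE cores at -110 and -54, and no CArG box was found in the windows of KLF2, KLF4, KLF6 or IER2. The CRE core was also present in KLF4 and IER2, but was common, in 24.6% of all windows. The EGR site GCGGGGGCG was found in KLF6 and KLF2 (5.07% of all windows), and the E-box in KLF6, KLF4 and another EGR2 window (7.26%). SP/KLF boxes (GGGCGGG, 33.1% of all windows) were found in KLF2, KLF4, KLF6, IER2 and EGR2, with 5 in KLF2. There the boxes at -250 and -244 both overlapped the EGR site at -248. The kappaB box (11.3%) was found in 1 EGR2 window. The ETS site in the exact form CCGGAAGT, the full CRE TGACGTCA, the EGR site GCGTGGGCG, AP-1 sites (TGANTCA) and TATAAA were not found in these windows. No other ETS sequence was searched for, so shorter or variant ETS sites may be present. All of these windows but 1 of EGR2 (54.7% GC) were above the median GC content of all windows (58.7%), with KLF2 highest (80.7%). The part of GC content in the matches was not tested. Such matches describe letters and do not show that a factor was bound.

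MYC, KLF6, EGR1, KLF2, IER2, KLF4 and KLF10 were higher in KO than in WT cells, and IER3 was lower. The rises ran from 1.23-fold for KLF10 to 2.12-fold for KLF6, with a median log2 fold change of 0.62 over the 8 tested genes against -0.0042 over all tested genes. Thus 7 of 8 tested genes passed an adjusted p of 0.05 as higher and 1 as lower, by the quasi-likelihood test of edgeR with p-values adjusted (Benjamini-Hochberg) over all tested genes. In the same comparison 20.4% of all tested genes were called higher, 19.1% lower and 39.5% either way. The KO and WT libraries did not overlap for any of the 8 genes, with 7 genes higher and 1 lower in KO. Of all tested genes, 34.1% lay apart in the same way as higher and 34% as lower, or 68.1% in all. The thresholds of the study's methods were taken as an unadjusted p under 0.05 (edgeR) together with a fold limit. At these thresholds 6 of the 8 were called (all but KLF10 and IER3), against 29.2% of all tested genes.

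MYC, the most abundant of these transcription factor transcripts, was at 282 and 282 CPM in the KO libraries and at 155 and 159 CPM in the WT libraries. The duplicates were nearly the same and the groups lay far apart. Its log2 fold change was 0.84 (95% interval 0.73 to 0.96), or 1.79-fold, with an adjusted p of 1.43e-14 (edgeR). Under every alternative run it was called higher, with values between 0.70 and 0.86.

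KLF6, a broadly expressed zinc finger factor induced by injury, was at 86.4 and 94.1 CPM in KO and at 42.7 and 42.3 CPM in WT libraries. Both KO libraries were far above both WT libraries. Its log2 fold change of 1.08 (95% interval 0.92 to 1.252) exceeded that of 96.1% of all tested genes, with an adjusted p of 3.20e-13 (edgeR).

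KLF4, the differentiation factor of stratified epithelia, was at 37.7 and 36.4 CPM in KO and at 27.3 and 27.1 CPM in WT libraries. The difference was modest, but the duplicates were tight and the groups apart. The log2 fold change of KLF4 was 0.45 (95% interval 0.23 to 0.66, adjusted p = 7.66e-04, edgeR). KLF10, a TGF-beta inducible repressor, was at 63.9 and 63.9 CPM in KO and at 52.8 and 51.2 CPM in WT libraries. This was the smallest rise, with a log2 fold change of 0.30 (95% interval 0.13 to 0.47, adjusted p = 0.00447, edgeR). Leaving out WT replicate 2 ended its call, at a log2 fold change of 0.27 and an adjusted p of 0.0638.

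KLF2, best known from endothelial and T cells, was low at 7.69 and 8.46 CPM in KO and at 5.42 and 4.74 CPM in WT libraries, on 66 to 142 counts per library. The groups did not overlap, but the interval was wide. KLF2 had a log2 fold change of 0.67 (95% interval 0.22 to 1.11, adjusted p = 0.0146, edgeR). This call was lost with DESeq2 (0.67, adjusted p = 0.122), without KO replicate 2 (0.61, adjusted p = 0.0590), without WT replicate 2 (0.57, adjusted p = 0.0954) and in a fit corrected for GC and length (0.30, adjusted p = 0.320).

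EGR1 was at 12 and 15.1 CPM in KO and at 7.22 and 9.40 CPM in WT libraries, from 221, 248, 112 and 131 counts. Both KO libraries were above both WT libraries, although the spread within each group was wider than for MYC or KLF6, with a coefficient of variation of 16.3% in KO and 18.6% in WT. Its log2 fold change was 0.70 (95% interval 0.34 to 1.07), or 1.63-fold, with an adjusted p of 0.00189 (edgeR). The call was lost by a narrow margin without WT replicate 1 (0.53, adjusted p = 0.0509) and with limma on log2(RPKM + 1) (0.49, adjusted p = 0.0532) or log2(RPKM + 0.1) (0.62, adjusted p = 0.0516).

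EGR2 and EGR3, EGR factors known from nerve and immune cells, were barely detected. EGR2 had 11 and 6 counts in KO and 9 and 5 counts in WT libraries. EGR3 had 6 and 1 counts in KO and 2 and 3 counts in WT libraries. The groups overlapped for both genes. Without the filter, the log2 fold change of EGR2 was 0.044 with a 95% interval from -1.73 to 1.81 (edgeR), so that neither a rise like that of EGR1 nor a fall of like size was detectable at this depth. For EGR3 the ratio of summed counts per total was 1.13 with an exact counting interval from 0.308 to 4.50.

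IER2, a small nuclear protein of the early response, was at 37.2 and 38.8 CPM in KO and at 22.0 and 29 CPM in WT libraries. Both KO libraries were higher, and the WT libraries differed from each other more than the KO libraries did. Its log2 fold change was 0.58 (95% interval 0.34 to 0.81, adjusted p = 1.05e-04, edgeR), and fell to 0.34 after the GC and length correction (adjusted p = 0.0188). IER3, also known as IEX-1, is induced by NF-kB, p53 and ERK and binds ERK. IER3 went the other way, at 265 and 243 CPM in KO and at 337 and 323 CPM in WT libraries. The KO libraries were the lowest of the 4. This was a log2 fold change of -0.38 (95% interval -0.49 to -0.26), or 0.770 of the WT level, with an adjusted p of 1.37e-06 (edgeR). After the GC and length correction it was -0.67 (adjusted p = 2.02e-13). IER2 and IER3 each overlap an annotated gene on the opposite strand (AC011446.2 and IER3-AS1), as EGR3 does (AC055854.1), and the use of strand in counting is not given in the sources used here, so reads of such pairs may be mixed.

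**Figure D1:**
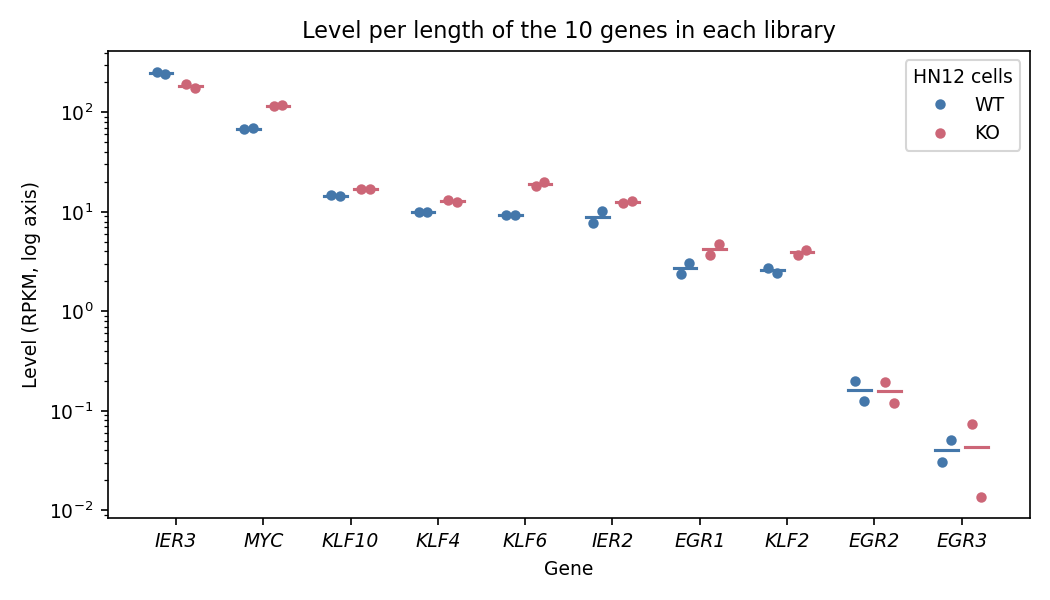
Level of each of the 10 genes per length in each library, as deposited RPKM values on a log axis, with WT in blue and KO in red, points for libraries and bars for the mean of 2 libraries. IER3 and MYC stand highest, EGR2 and EGR3 are lowest with overlapping groups, and for the other 8 genes the KO and WT points do not overlap.

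Levels of different genes were compared per length, on the RPKM scale. In WT cells the order of mean levels was IER3 (250 RPKM), MYC (68.6), KLF10 (14.6), KLF4 (9.89), KLF6 (9.36), IER2 (8.91), EGR1 (2.71), KLF2 (2.58), EGR2 (0.162) and EGR3 (0.0407). IER2, with an SD of 1.74 RPKM, did not differ from KLF6 or from KLF4 beyond the sum of their SDs, and neither did EGR1 from KLF2. In KO cells KLF6 had moved from rank 5 to rank 3, at 18.9 ± 1.18 RPKM (SD, n = 2), above KLF10 at 17 ± 0.0466 RPKM (SD, n = 2). IER3 and MYC came closer to each other, at 184 and 117 RPKM. KLF4 (12.9 RPKM) and IER2 (12.6 RPKM) did not differ beyond the sum of their SDs, and neither did EGR1 (4.21 RPKM) and KLF2 (3.91 RPKM). Among all 26726 listed genes, the mean RPKM of IER3 lay at the 99.4 percentile in WT cells and that of MYC at the 96.8 percentile, while EGR1 lay at the 62.2 percentile.

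**Figure D2:**
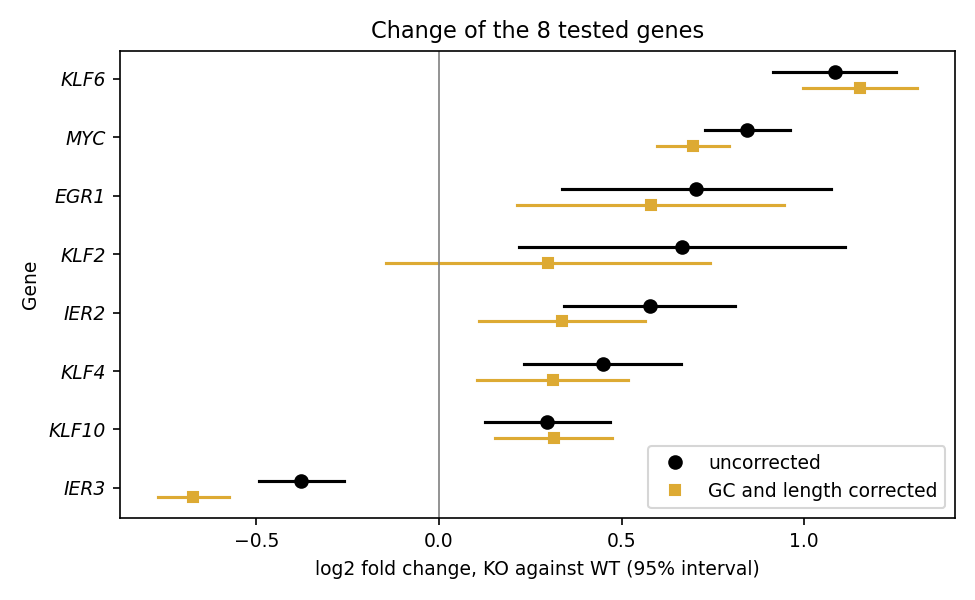
Log2 fold change of the 8 tested genes, KO against WT, with 95% intervals, from the uncorrected fit (black circles) and from a fit with GC and length offsets (yellow squares). KLF6 and MYC stay far above 0 in both fits, the corrected interval of KLF2 includes 0, and IER3 is below 0 in both.

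The GC content of the transcripts was above the median of tested genes (48.2%) for 6 of the 8 tested genes, and was highest for KLF2 (65.2%) and IER2 (61.7%). KLF6 (45.9%) and KLF10 (47.2%) were below it. With GC content and length as offsets, the median log2 fold change of the 8 genes was 0.33 in place of 0.62. MYC was then at 0.70, KLF6 at 1.15, EGR1 at 0.58, KLF4 at 0.31 and KLF10 at 0.31, each still called (adjusted p of EGR1 = 0.0121, edgeR).

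Each gene was also set beside its nearest tested genes on the same chromosome. Of the 40 nearest tested genes around MYC, 39 had a lower log2 fold change than MYC, and their median was -0.060. The medians around EGR1 (0.037), KLF2 (0.10), KLF4 (-0.044) and KLF10 (-0.098) were also small beside the gene's own change. KLF6 had 31 such neighbours, near the end of chromosome 10, with a median of 0.089, and 24 of them were below KLF6. Of these 31, 11 were called higher and 3 lower, and their upper quartile was 0.67. The nearest on each side, PITRM1 (0.78) and LINC00702 (2.38), also had positive log2 fold changes, so KLF6 moved within the range of its neighbours. The neighbours of IER2 had a median of 0.23 with 16 of 40 called higher and 1 lower. Those of IER3 had a median of -0.24 with 17 of 40 called lower and 3 higher, and 11 were below IER3 itself, so IER3 moved within the range of its neighbours. Around the untested EGR2, 25 of 40 neighbours were called lower and 1 higher, with a median of -0.42, and around EGR3 the median was 0.13 with 10 called higher and 6 lower.

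**Figure D3:**
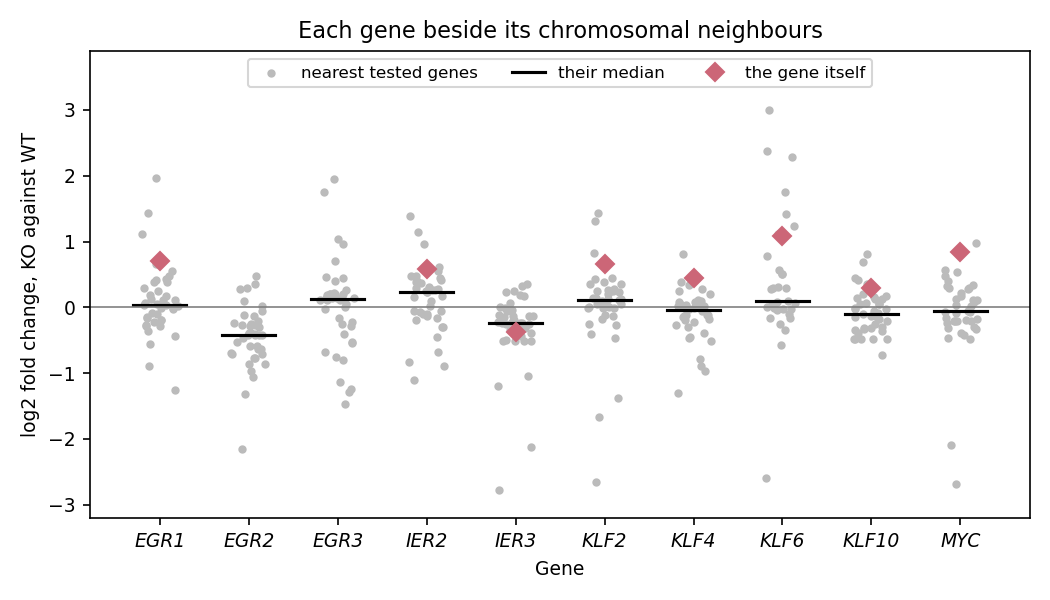
Log2 fold change, KO against WT, of each gene (red diamond) beside that of its nearest tested genes on the chromosome (grey points, with 20 on each side where there are that many) and their median (black line). A neighbour beyond the axis limit of 3 is drawn at the limit. MYC and KLF4 lie above 39 of 40 neighbours. KLF6, above 24 of 31, and IER3 lie within their own, while EGR2 and EGR3 have no diamond since they were not tested.

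The other genes of these families, and further gene lists, were described next. The counts of called genes in each list stand beside 20.4% called higher and 19.1% called lower of all tested genes. Of the EGR partners, the co-repressor NAB2 had 34.5 ± 6.27 CPM in KO against 25.9 ± 0.632 CPM in WT (SD, n = 2 each), with a log2 fold change of 0.42 (adjusted p = 0.00408, edgeR). NAB1 was lower in KO, at -0.28 (adjusted p = 0.00354, edgeR), and EGR4 was too low to test. Both calls were lost after the GC and length correction, and that of NAB2 also without KO replicate 1 (0.22), with DESeq2 (0.42) and with limma on either RPKM scale (0.31 and 0.33). Of 13 other KLF genes, 8 could be tested, and 4 rose while 1 fell. KLF13 (0.81), KLF7 (0.68), KLF16 (0.61) and KLF5 (0.52), the last known from proliferating epithelium, were higher in KO on the log2 scale. KLF9, a glucocorticoid-responsive family member, was lower at 1.19 ± 0.388 against 3.09 ± 0.00573 CPM (SD, n = 2), a log2 fold change of -1.36, but the call was lost with DESeq2 and without KO replicate 2 or WT replicate 1. Both other IER genes rose, IER5 by 0.82 (207 ± 0.880 against 118 ± 1.86 CPM; SD, n = 2) and IER5L by 1.18 on the log2 scale.

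MYC's partners moved little as a group, with 1 of 11 tested genes higher, 2 lower and a median log2 fold change of 0.14 (0.25 without WT replicate 2). MXI1, a MAX-binding antagonist of MYC, was lower at 8.76 ± 1.74 against 20.6 ± 0.0669 CPM (SD, n = 2), a log2 fold change of -1.24 (adjusted p = 6.01e-08, edgeR). The glucose-responsive MLXIPL was also lower (-1.26) and MLXIP was higher (0.28), but the call of MLXIPL was lost with DESeq2 and on leaving out any of the 4 libraries, and that of MLXIP after the GC and length correction, on either RPKM scale and without WT replicate 1 (0.18). Their common partner MLX did not pass (0.13, adjusted p = 0.214, edgeR). Of 30 genes known as MYC targets, mostly in ribosome and nucleotide synthesis, 19 were higher and 1 lower in KO, with a median of 0.26. RRS1 (0.69), RRP12 (0.54) and BOP1 (0.52), which act in the assembly of ribosomal subunits, rose furthest among those called. LDHA, which makes lactate from pyruvate, was the one that fell, from 2414 ± 21.8 CPM in WT to 1786 ± 71.1 CPM in KO (SD, n = 2), and the nucleolar NPM1 did not pass at -0.050.

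Among the immediate early genes outside these families, 15 of 24 tested were higher and 1 lower, with a median log2 fold change of 0.73. PTGS2, which encodes cyclooxygenase-2, had 45.6 ± 0.314 CPM in KO against 11.3 ± 1.77 CPM in WT (SD, n = 2 each), a log2 fold change of 2.01. RHOB (1.29) and the matricellular CTGF (1.23) followed, and CYR61, the most abundant per length, rose by 0.46. NFKBIZ, a nuclear regulator of NF-kB, fell by 0.68 on the log2 scale. NR4A3 and ARC, also on this list, were too low to test.

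Of 15 genes that report ERK activity, 8 were higher and 4 lower, with a median of 0.33. Of all tested genes, 20.4% were called higher and 19.1% lower. The ERK phosphatases DUSP4 (1.61) and DUSP6 (0.75), the feedback inhibitor SPRY4 (0.86) and the AP-1 subunit FOSL1 (0.62) were higher in KO on the log2 scale. The ETS factors ETV1 (-0.79) and ETV5 (-0.50) and the RAS inhibitor SPRED1 (-0.47) were lower, the last not after the GC and length correction (-0.20). ETV4, a further ETS factor of the list that was named after its value was seen, was higher (0.61). Upstream of the early genes, the 15 kinases and factors were split evenly, with 5 higher, 5 lower and a median of -0.057 (-0.032 without KO replicate 2). The kinase RPS6KA4 (0.89) and MAP2K2 (0.44), which phosphorylates ERK, were higher, whereas MKL2 (-0.58) and ELK4 (-0.54), which act with SRF, and the kinase RPS6KA5 (-0.62) were lower. The SRF coactivator MKL1 was higher at 0.31, a call lost under 8 of the alternatives, among them leaving out KO replicate 1 (0.19), WT replicate 1 (0.32) or WT replicate 2 (0.30). The call of RPS6KA5 was lost with DESeq2, after the GC and length correction and without KO replicate 1 or WT replicate 2. Transcript levels of kinases do not measure their activity.

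Of 12 genes known as EGR1 targets, 6 were higher, with a median of 0.16 that ranged from 0.076 without WT replicate 2 to 0.25 without WT replicate 1 and was 0.11 without KO replicate 1. Fibronectin (FN1, 0.96), tissue factor (F3, 0.48) and VEGFA (0.36) were higher on the log2 scale. Of 13 genes tied to squamous differentiation and KLF4, 6 could be tested and 4 were higher. The cornified envelope enzyme TGM1 (0.80), the keratin KRT10 (0.50) and the cell cycle inhibitor CDKN1A (0.33) were called higher, although the calls of TGM1 and CDKN1A were each lost under 5 alternatives. These included leaving out KO replicate 2 or WT replicate 1 for TGM1 (0.58 each) and any library but KO replicate 2 for CDKN1A (0.26 to 0.34). SPRR1B, a cornified envelope precursor, had 28 and 23 counts in KO and 1 and 3 counts in WT libraries, a ratio per total of 10.3 with an exact counting interval from 3.77 to 39.1. IVL, SPRR1A, KRT4 and KRT1 were too low to test.

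**Figure D4:**
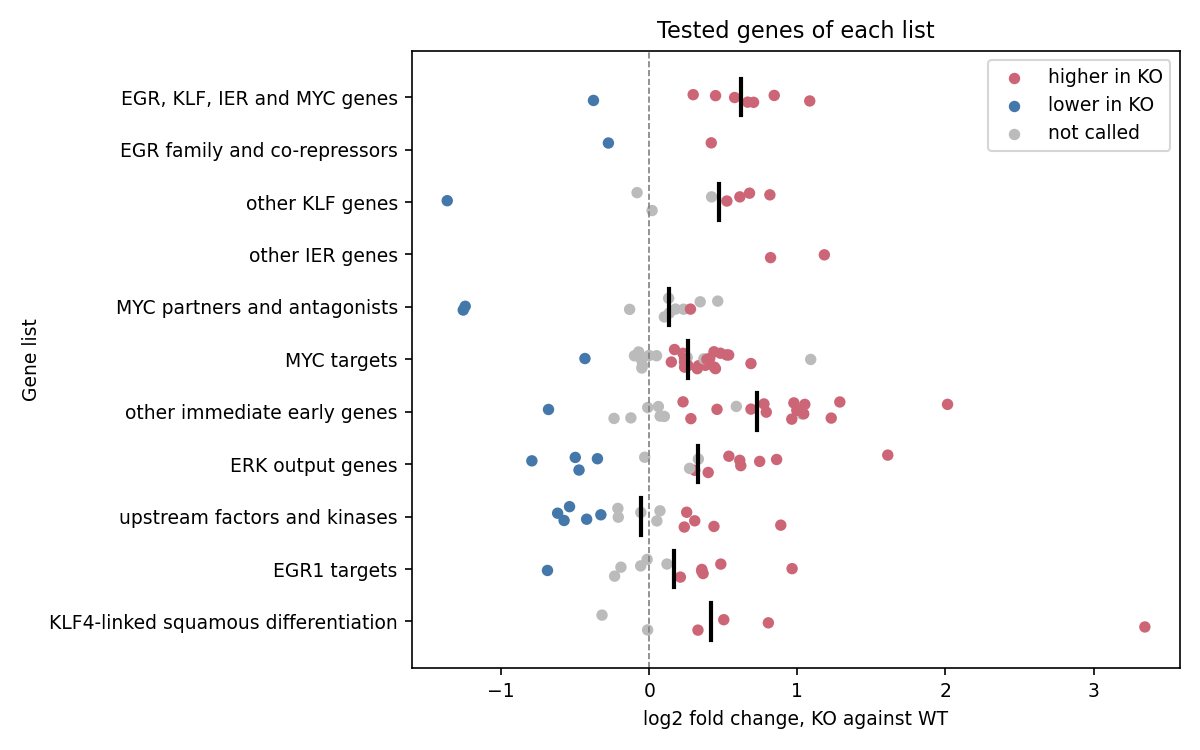
Log2 fold change, KO against WT, of the tested genes of each list, in red where called higher, blue where called lower and grey where not called, with a black bar at the median of lists with at least 3 tested genes and a dashed line at the median of all tested genes (-0.0042). The EGR, KLF, IER and MYC genes and the other immediate early genes lie mostly to the right of the line, the upstream factors and kinases lie on both sides, and the point at 3.35 is SPRR1B.

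The tested genes whose profile over the 4 libraries was most like that of MYC, by Euclidean distance of centred log2 CPM among 9423 genes, were LAMB3, IER5, NEXN, PROCR and LAPTM5, at distances from 0.0230 to 0.0385. For EGR1, SH3TC2, C9orf37, MYEOV2 and C6orf141 were among the nearest, at distances from 0.0899 to 0.148. Since they were picked for likeness to genes that rose, the genes named here were higher in KO by that choice, with log2 fold changes between 0.62 and 0.86. A likeness over only 4 libraries is a description.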

How the data were processed

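RNA of HN12 cells was sequenced by the authors, and 2 KO and 2 WT libraries were grouped by their labels. The authors deposited raw counts for each gene, and RPKM values that were found to equal those counts divided by gene length and library total. The submitters' processing notes name CASAVA, STAR 2.5, HTSeq, edgeR 3.16.5 and hg19. Neither the annotation nor the use of strand is given in the sources used here. Counts were compared with edgeR 4.0.16 in R 4.3.3 (filterByExpr, TMM, glmQLFit and glmQLFTest, no replicate term), with Benjamini-Hochberg adjustment of p-values over 15104 genes. DESeq2 1.42.0 and limma 3.58.1 were run as alternatives, the last on log2(RPKM + pseudocount), which understates changes of low genes. GC content came from GENCODE release 29 for 97.2% of tested genes, and spline offsets with 4 degrees of freedom were used for the correction. The scripts were tested on simulated data. The members and lists were chosen with earlier results of these data known. Named genes are the members, ATAD3A, the 5 nearest profiles of EGR1 and of MYC and, for each list, every tested gene up to 5 or the 3 largest called rises, the 3 largest called falls and the gene with the highest RPKM. With 2 libraries per group, the spread between cultures is poorly known for every gene. Genes of low counts, such as EGR2, EGR3 and KLF2, are limited by counting error as well. Some genes that this rule names are not reported here.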

Additional observations from a re-analysis of the deposited data

How the results depend on the processing

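Of 112 values of the 8 tested members under the alternatives, 104 kept their direction and their side of the threshold, 8 kept the direction and lost the call, and none reversed. The 8 were EGR1 with limma on log2(RPKM + 1) (0.49), on log2(RPKM + 0.1) (0.62) and without WT replicate 1, KLF2 with DESeq2 (0.67), after the GC and length correction (0.30) and without KO replicate 2 or WT replicate 2, and KLF10 without WT replicate 2. Of 629 such values of the other named genes, 41 lost a call, 1 gained one (NPM1 with library totals only, -0.12) and none reversed. The cause of these changes was not tested. The sources used here do not say whether same-numbered libraries were paired. The deviations of same-numbered libraries from their group means had a correlation of -0.060 over 11159 genes. This showed no strong shared shift, but it cannot show whether those cultures were handled together. With a replicate block, all 8 members kept their call, and 3009 genes were called higher and 2808 lower in place of 3074 and 2891. Over all tested genes, 1881 were called lower with DESeq2 and 1847 at the thresholds of the study's methods, where 0 members were called lower.

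Counts of called genes in lists moved as follows. With DESeq2, 0 EGR co-repressors were called higher, 0 other KLF genes lower, 1 MYC partner lower, 3 upstream genes higher and 2 squamous differentiation genes higher. After the GC and length correction, 0 co-repressors were called either way, 2 other immediate early genes lower, 3 upstream genes higher and 3 EGR1 targets lower. With library totals only, 4 MYC targets, 2 other immediate early genes and 3 EGR1 targets were called lower and 3 upstream genes higher. With limma on either RPKM scale, 0 co-repressors, 0 MYC partners and 2 upstream genes were called higher. At the thresholds of the study's methods, 0 co-repressors were called lower, 0 MYC partners higher and 2 upstream genes higher.

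Median log2 fold changes moved by more than the replicate spread as follows. For members, the median was 0.33 after the GC and length correction and 0.46 on log2(RPKM + 1). For other KLF genes it was 0.34 with DESeq2, 0.35 after the correction, 0.36 with no filter, 0.34 on log2(RPKM + 1) and 0.39 on log2(RPKM + 0.1). For other immediate early genes it was 0.64 with DESeq2, 0.55 after the correction, 0.66 with library totals, 0.65 with no filter, 0.42 on log2(RPKM + 1) and 0.65 on log2(RPKM + 0.1). For MYC targets it was 0.15 after the correction, 0.19 with library totals, 0.18 on log2(RPKM + 1) and 0.19 on log2(RPKM + 0.1). For ERK output genes it was 0.26 with library totals, 0.23 on log2(RPKM + 1) and 0.25 on log2(RPKM + 0.1). For upstream genes it was -0.12 after the correction and on log2(RPKM + 1), and -0.13 with library totals and on log2(RPKM + 0.1). For MYC partners it was 0.059 on log2(RPKM + 1), and for squamous differentiation genes 0.24 after the correction.

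Leaving out each library in turn, with the lone library of a group assumed to vary like the other group, gave log2 fold changes from 0.53 to 0.90 for EGR1, 0.57 to 0.77 for KLF2 and 0.27 to 0.32 for KLF10. The medians ran from 0.49 to 0.68 for members, 0.37 to 0.43 for ERK output genes, 0.11 to 0.25 for MYC partners, 0.076 to 0.25 for EGR1 targets, 0.27 to 0.30 for MYC targets, 0.64 to 0.70 for other immediate early genes and -0.064 to -0.032 for upstream genes. Genes called higher ran from 0 to 1 among EGR co-repressors, 2 to 3 among squamous differentiation genes, 0 to 1 among MYC partners and 2 to 4 among upstream genes, and genes called lower from 1 to 2 among MYC partners and 0 to 1 among other KLF genes.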
